A study of Mus musculus with 36 samples.

Results

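The genes Cbx1, Cbx3 and Cbx5 encode HP1β, HP1γ and HP1α, the 3 heterochromatin protein 1 (HP1) paralogues of the mouse. They were taken from the count table by gene symbol and Ensembl identifier, as 3 of the 54842 genes listed in it, and were followed in all 36 libraries. All 3 passed the filter on low counts, which kept 28536 genes for testing. The rule for the choice used no measured value, though earlier results of these data were known when it was made. In cells with a transcriptional activator targeted to their major satellite repeats (MSR), RNA of all 3 genes was lower than in control cells 12 and 24 h after the inducer was removed, and Cbx5 RNA was already lower before that.

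RNA was sequenced from 2 lines of mouse embryonic fibroblasts (MEF), in 12 groups of 3 biological replicates. Both lines carried a guide RNA against the MSR and, under a doxycycline-inducible promoter, dCas9, a form of Cas9 that binds but does not cut DNA. In the MSR-dCas9-Control line dCas9 carried no effector, and in the MSR-dCas9-Activator line it was fused to the transcriptional activator VPR. The comparison asked how gene expression responds when satellite transcription is forced, and whether it returns afterwards. The groups of each line were uninduced cells without doxycycline, induced cells with doxycycline at 10 ng/ml, and cells 3, 6, 12 and 24 h after a change to fresh medium without doxycycline. Induction lasted 24 h in the Control line and 6 h in the Activator line, so effector and length of exposure cannot be told apart between the induced groups or at later times. The lines were made by PiggyBac transposition and kept as mixed cultures rather than clones, so cells within a line can differ in the number and place of insertions.

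HP1 proteins read methylated lysine 9 of histone H3 (H3K9me) with an N-terminal chromodomain, and pair up through a C-terminal chromoshadow domain that also docks partner proteins. At the pericentric heterochromatin of mouse cells, which is built on MSR, HP1α and HP1β are enriched and recruit the SUV39H methyltransferases that write the mark they read. HP1γ is more widely distributed and is also found over transcribed genes.

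In the GRCm38 annotation (GENCODE M21), Cbx1 (ENSMUSG00000018666) lies on chromosome 11 from 96789127 to 96808640 on the plus strand. Cbx3 (ENSMUSG00000029836) lies on chromosome 6 from 51470360 to 51483704 on the plus strand, and Cbx5 (ENSMUSG00000009575) on chromosome 15 from 103191544 to 103239816 on the minus strand. Their exons, merged over all transcripts, cover 4273, 5992 and 9006 bases. Cbx3 and Cbx5 share an arrangement: each starts back to back with a gene for an abundant RNA-binding protein on the other strand, Hnrnpa2b1 at 466 bases from Cbx3 and Hnrnpa1 at 616 bases from Cbx5. Cbx1 has no such partner, and its nearest protein-coding neighbours Snx11 and Nfe2l1 start 11568 and 40841 bases away.

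The sequences just upstream of the HP1 gene that fell most at 12 h (Cbx5) and the one that fell least (Cbx1) are shown from RefSeq (GRCm38.p6), read 5′ to 3′ on the strand of the gene. The Cbx5 stretch, chr15:103239853-103240102 on the minus strand, lies between the Cbx5 and Hnrnpa1 starts. The Cbx1 stretch, chr11:96788885-96789126 on the plus strand, ends at the base before its first annotated exon.
Cbx5: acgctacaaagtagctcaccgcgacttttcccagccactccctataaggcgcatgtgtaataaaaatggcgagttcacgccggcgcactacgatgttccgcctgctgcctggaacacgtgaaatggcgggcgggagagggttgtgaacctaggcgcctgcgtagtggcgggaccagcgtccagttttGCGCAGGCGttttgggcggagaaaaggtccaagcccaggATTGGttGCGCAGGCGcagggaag
Cbx1: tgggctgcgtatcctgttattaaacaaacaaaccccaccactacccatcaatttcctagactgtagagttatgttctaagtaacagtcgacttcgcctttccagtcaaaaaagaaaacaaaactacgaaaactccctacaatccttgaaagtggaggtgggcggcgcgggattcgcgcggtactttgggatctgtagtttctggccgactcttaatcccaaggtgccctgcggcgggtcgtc
Capitals mark matches, on either strand, to 3 motif classes that were picked with these sequences in view: a CCAAT box (CCAAT), an NRF1-type motif (GCGCANGCG) and an E2F-type motif (TTTGGCGC, TTTCGCGC, TTTGGCGG or TTTCCCGC). The Cbx5 stretch held 2 NRF1-type matches and 1 CCAAT match, read on the opposite strand, and the matches did not overlap. The Cbx1 stretch held no match to any of the 3. Over the 250 bases upstream of 32851 RefSeq starts, 5.16% of windows held the NRF1-type motif, 33.8% the CCAAT box and 1.96% the E2F-type motif. RefSeq gives a second start for Cbx5, whose window (chr15:103215353-103215602) held no match and is not printed. Of the 2 Cbx3 windows, 1 held an E2F-type match and the other none, and they are not printed because the first overlapped annotated Cbx3 exons. A match describes letters only, and binding was not measured.

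Gene counts per library ranged from 27376846 to 57371803 (median 42865961), so counting error was small for all 3 genes, whose lowest counts were 1674 for Cbx1, 1891 for Cbx3 and 6937 for Cbx5. Values are given as CPM, the gene count per library size after TMM scaling. For the fibroblast label, 7 of 8 markers were present in every library, with Col1a1 at 2621 CPM or more and Vim at 1343 CPM or more in every library, while Thy1 reached no more than 0.206 CPM. The summed level of the 8 fibroblast markers ran from 22153 to 34357 CPM in the Control line. In the Activator line it was 23012 to 33747 CPM up to 6 h, but 15019 to 18092 CPM at 12 h and 10800 to 19417 CPM at 24 h, the times at which the HP1 genes were lowest. Endothelial markers summed to at most 1.91 CPM in the Control line but up to 44.0 CPM in the Activator line, carried by Pecam1 (up to 32.7 CPM) and Tek (up to 17.0 CPM), with Cdh5 at 0.533 CPM or less, and their sum was already at 14.5 CPM or more in induced Activator cells. Epithelial, blood and pluripotent cell lists stayed at or below 3.64, 11.1 and 2.09 CPM in sum, and Hba-a1 and Dppa3 reached at most 1 count. Mitochondrial mRNAs took 1.97% to 3.599% of gene counts in Activator cells after induction and 1.45% to 2.56% in Control cells. The part of these shifts in the HP1 values was not tested. In bulk RNA, fewer cells of a type and less RNA per cell cannot be told apart.

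The Control line gives the baseline, and there the 3 genes were steady. Cbx5 ran from 609 to 729.5 CPM over the 18 Control libraries (median 708), Cbx3 from 146 to 176 CPM (median 158) and Cbx1 from 83.8 to 108 CPM (median 92.0). The highest library exceeded the lowest by a factor of 1.20 for Cbx5, 1.20 for Cbx3 and 1.29 for Cbx1. No change from the uninduced state was called for any of the 3 at any time in this line, with log2 fold changes between -0.14 and 0.12, where 0.214%, 0.55%, 0.403%, 1.05% and 0.788% of all genes were called in the induced state and at 3, 6, 12 and 24 h. Per length of merged exons, Cbx5 was the most abundant. In uninduced Control cells it stood at 78.5 ± 1.91 CPM per kb of exon (SD, n = 3), against 25.8 ± 1.19 for Cbx3 and 22.1 ± 0.895 for Cbx1, and it made up 62.1% ± 1.40 of the summed HP1 RNA. The merged length covers all annotated transcripts, and which of them were expressed was not determined. Levels, shares and sums per length depend on that choice.

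**Figure D1:**
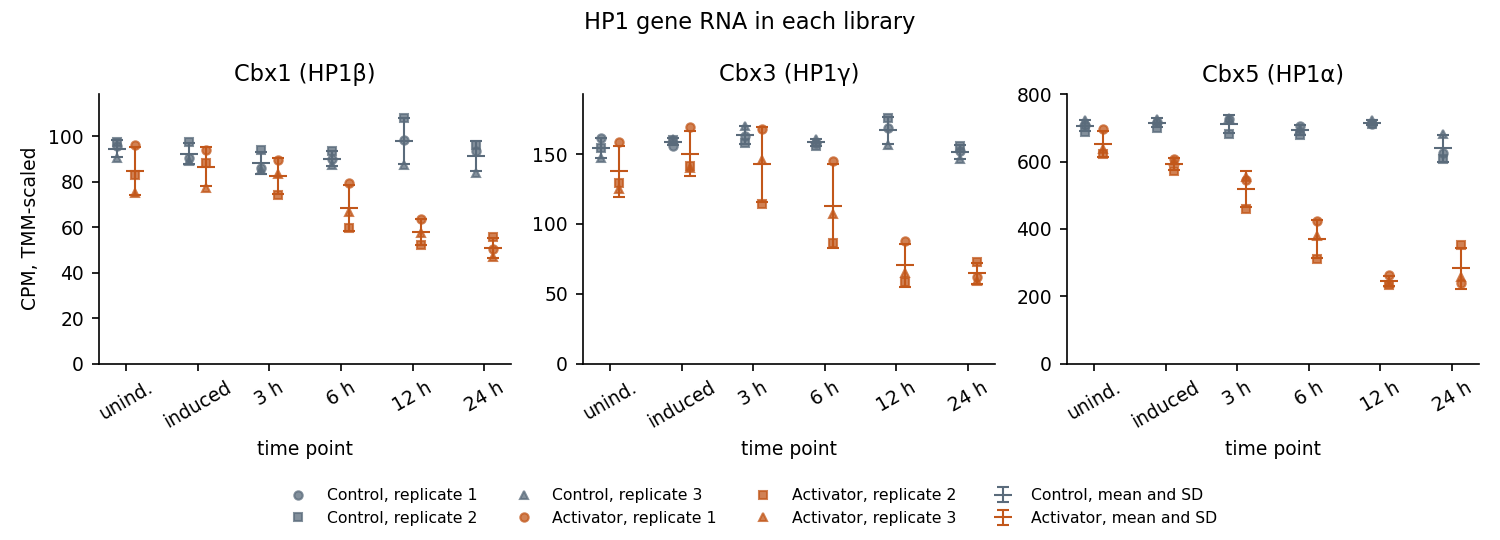
CPM of Cbx1, Cbx3 and Cbx5 (TMM-scaled, linear axis from 0) in each of the 36 libraries by time point, Control in grey and Activator in orange, with a marker shape for each replicate number and the mean and SD over 3 libraries. Control libraries stayed level, with Cbx5 between 609 and 729.5 CPM, while all 3 genes declined in the Activator line, Cbx5 to between 234 and 262 CPM at 12 h.

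Before induction the 3 HP1 genes did not differ detectably between the lines. Uninduced Activator cells held Cbx5 at 697, 622 and 637 CPM in replicates 1 to 3, against 709.7, 688 and 722 CPM in Control cells. For Cbx3 the values were 159, 129.6 and 125 CPM against 162, 155 and 147 CPM. For Cbx1 they were 96.2, 83.2 and 74.97 CPM against 95.8, 97.7 and 90.3 CPM. The ranges overlapped for every gene, with replicate 1 of the Activator line the highest of its 3 each time. The log2 differences of -0.12, -0.17 and -0.16 for Cbx5, Cbx3 and Cbx1 did not pass the quasi-likelihood test of edgeR, adjusted over all genes by the Benjamini-Hochberg method (adjusted p = 0.803, 0.723 and 0.597), where 0.343% of genes were called lower.

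Cbx5, encoding HP1α, was the first of the 3 to pass the test between the lines under TMM scaling, whereas with scaling to mitochondrial mRNAs all 3 passed in the induced state. Directly after induction Activator cells held 607, 572 and 600.5 CPM and Control cells 719, 699.9 and 726 CPM. The groups did not overlap, and the log2 difference of -0.27 ± 0.11 (SE) passed the test (adjusted p = 0.0297). At this time 25.5% of all genes were called lower. This call was lost with each of the 6 libraries of the time point left out in turn, and with DESeq2 in place of edgeR (-0.19, adjusted p = 0.0906).

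At 3 h Cbx5 stood at 546, 458 and 555 CPM in Activator cells and at 727, 682 and 729.5 CPM in Control cells, a log2 difference of -0.46 ± 0.11 (adjusted p = 3.56e-04, 31.4% of genes called lower). At 6 h the values were 423, 309.7 and 379 CPM against 706, 678 and 698 CPM (-0.91 ± 0.11, adjusted p = 1.49e-08, 33.3% called lower). Both times the lowest library was Activator replicate 2, and no Activator library reached the Control range. The step from 3 to 6 h within the Activator line was -0.49 ± 0.11 (adjusted p = 0.0193), where 0.592% of genes were called lower. That step was lost without TMM (-0.44) and without replicate 1 or 3, where it was about as large (-0.55 and -0.46). The step from the induced state to 3 h did not pass for Cbx5 (-0.19, adjusted p = 0.243), where 4.77% of genes were called lower.

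At 12 h Cbx5 was at its lowest, with 262, 234 and 238 CPM in Activator cells against 712, 712 and 724 CPM in Control cells. The groups were far apart and the Activator level was 0.341 times that of Control (log2 -1.55 ± 0.11, adjusted p = 3.99e-13, 34.1% of genes called lower). At 24 h the values were 239, 351 and 257 CPM against 627, 609 and 684 CPM (-1.17 ± 0.11, adjusted p = 2.88e-10, 29.4% called lower). The 24 h group was wider, with replicate 2 now the highest Activator library instead of the lowest. The step from 12 to 24 h in the Activator line was 0.21 ± 0.11 on the log2 scale and did not pass the test (adjusted p = 0.107), where 17.5% of genes were called higher and 19.5% lower. It passed with library sizes not scaled by TMM (0.45, adjusted p = 0.00255) and with scaling to mitochondrial mRNAs (0.54, adjusted p = 0.0198).

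Cbx3 encodes HP1γ. Induced Activator cells held 169, 142 and 140.3 CPM against 156, 159.9 and 161 CPM in Control cells, and 168, 115 and 146 CPM against 163, 158 and 170.3 CPM at 3 h. The ranges overlapped both times and neither log2 difference passed (-0.09, adjusted p = 0.565, and -0.21, adjusted p = 0.142), though both did with mitochondrial scaling (-0.46 and -0.82). Activator replicate 2 at 3 h lay well below the other libraries.

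At 6 h Cbx3 read 145, 86.2 and 107 CPM in Activator cells and 158, 156 and 161 CPM in Control cells, with no overlap (-0.50 ± 0.13, adjusted p = 7.86e-04). This call was lost with replicate 2 left out of all groups and the TMM scaling made anew (-0.19, adjusted p = 0.118). It was also lost with only the 6 libraries of the time point in the fit (-0.40, adjusted p = 0.0905). In the CPM values above, replicates 1 and 3 were still lower in Activator cells, at 145 and 107 against 158 and 161. At 12 h the values were 87.9, 58.8 and 64.9 CPM against 169, 176 and 157 CPM, 0.418 times the Control level (-1.26 ± 0.13, adjusted p = 8.31e-10). At 24 h they were 61.7, 73.0 and 59.0 CPM against 152, 156 and 146 CPM (-1.23 ± 0.13, adjusted p = 3.54e-09). Between 6 and 12 h Cbx3 dropped by 0.68 on the log2 scale in the Activator line (SE 0.13, adjusted p = 0.00109), where 4.97% of genes were called lower, a call lost with mitochondrial scaling (-0.39) and without replicate 3 (-0.65, adjusted p = 0.242). The step from 12 to 24 h was -0.11 ± 0.13 (adjusted p = 0.501).

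Cbx1, encoding HP1β, had the smallest differences of the 3 at 12 and 24 h. It read 94.2, 88.3 and 77.4 CPM in induced Activator cells against 90.4, 97.5 and 89.0 CPM in Control cells, and 89.6, 74.0 and 83.7 CPM against 86.3, 93.9 and 85.0 CPM at 3 h. The groups overlapped and the log2 difference was -0.10 both times (adjusted p = 0.393 and 0.340), against -0.47 and -0.71, both called, with mitochondrial scaling. Its sign at 3 h differed in the fit without replicate 2, where Cbx1 was higher in Activator cells (0.22, adjusted p = 0.0260). That fit made the TMM scaling anew. The CPM values above of replicates 1 and 3 lay close together, at 89.6 and 83.7 against 86.3 and 85.0. The part of the new scaling in the 0.22 was not separated.

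From 6 h on the Cbx1 groups were apart. The values were 79.3, 59.6 and 66.6 CPM against 89.8, 93.7 and 87.2 CPM at 6 h (-0.40 ± 0.09, adjusted p = 4.09e-04), a call that was lost without replicate 2 (-0.12, adjusted p = 0.216) and with only the 6 libraries of that time (-0.28, adjusted p = 0.142). At 12 h Cbx1 read 63.7, 52.3 and 57.5 CPM against 98.3, 108 and 87.5 CPM, 0.591 times the Control level (-0.76 ± 0.09, adjusted p = 3.73e-08). At 24 h it read 50.2, 55.8 and 47.0 CPM against 93.6, 96.3 and 83.8 CPM, or 0.559 times (-0.84 ± 0.09, adjusted p = 1.47e-08). Its lowest group mean was at 24 h, that of Cbx5 at 12 h.

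**Figure D2:**
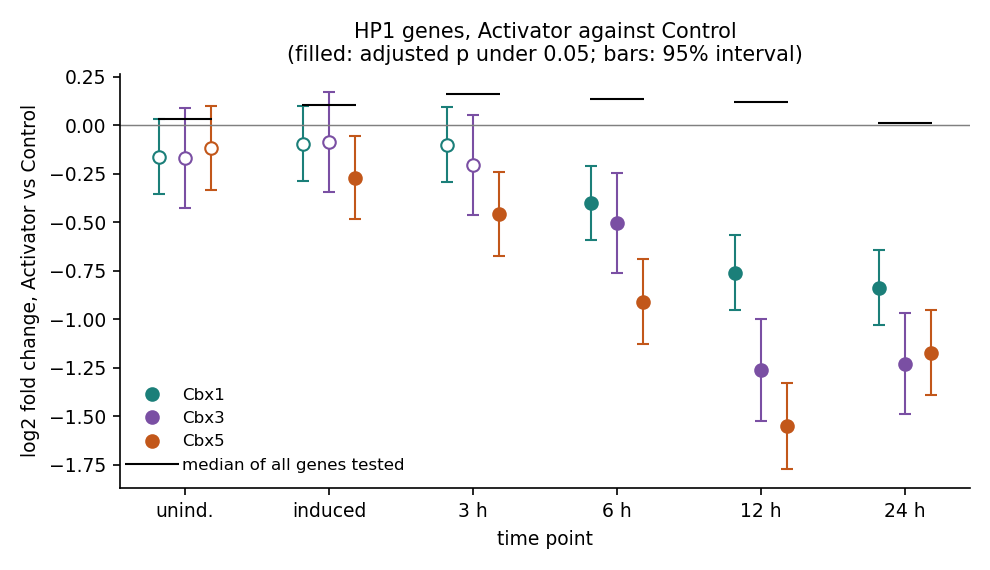
Fitted log2 fold change of each gene between Activator and Control cells at each time point (points, filled where the adjusted p is under 0.05) with its 95% interval, and the median over all genes tested (black dashes). Cbx5 was below 0 beyond its interval from the induced state on and reached -1.55 at 12 h, when Cbx3 was at -1.26 and Cbx1 at -0.76.

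Many genes were lower at these times, so each HP1 gene was also placed among all genes. The share of all genes whose groups did not overlap was not counted, so the separations given above have no such background. Among the 13628 genes with a mean count above 100, 9.72% had a lower log2 fold change than Cbx5 at 12 h, 15.6% a lower one than Cbx3 and 31.1% a lower one than Cbx1. At 24 h those shares were 4.48%, 3.63% and 14.9%. Earlier the 3 genes were nearer the middle. The shares for Cbx5, Cbx3 and Cbx1 were 37.3%, 48.4% and 47.9% in the induced state. At 3 h they were 35.2%, 45.5% and 50.5%, and at 6 h 24.1%, 36.7% and 40.7%. The median over all genes tested, including those with a mean count of 100 or less, was 0.12 at 12 h and 0.01 at 24 h. It is not the median of the 13628 genes, which was not computed. At 3 h the median over all genes tested was 0.16. At that time 50.5% of the 13628 genes lay below the -0.10 of Cbx1, so their median was lower, at or below -0.10. Other scalings moved the median over all genes tested at 12 h to between -0.49 (mitochondrial mRNAs) and 0.33 (DESeq2). They moved the share of lower genes among all called from 45.3% to 63.3% and 37.6%. All 3 HP1 genes stayed called lower at 12 and 24 h under each scaling tried. By the limits the study used, a mean normalised count above 100, a change over 2-fold and an adjusted p under 0.05, Cbx3 and Cbx5 were called lower at 12 and 24 h and Cbx1 was not called at any time, where the shares of genes called lower from uninduced to 24 h were 0.021%, 5.71%, 9.45%, 10.3%, 10.9% and 4.12%.

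Within the Activator line, set against its own uninduced cells, Cbx5 again passed first. It was lower from 3 h (log2 -0.33, -0.82, -1.41 and -1.20 at 3, 6, 12 and 24 h, with adjusted p from 3.41e-12 to 0.00659), where 33.3%, 33.9%, 34.9% and 28.5% of genes were called lower. Cbx3 was lower from 6 h (-0.30, -0.97 and -1.08) and so was Cbx1 (-0.30, -0.55 and -0.73). In the induced state, where 28% of genes were called lower, none of the 3 had passed (-0.14, 0.13 and 0.03 for Cbx5, Cbx3 and Cbx1). The calls of Cbx3 and Cbx1 at 6 h and of Cbx5 at 3 h were lost with DESeq2 (-0.12, -0.13 and -0.18) and without replicate 2 (-0.032, -0.087 and -0.076), and that of Cbx3 also without replicate 3 or without the replicate block (-0.33 and -0.29). These comparisons and those between the lines use the same Activator libraries.

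The change from uninduced was then compared between the lines, which takes off the gap present before induction. It was more negative in the Activator line for Cbx5 at 6 h (-0.79 ± 0.15, adjusted p = 8.47e-05), 12 h (-1.43 ± 0.15, adjusted p = 1.23e-08) and 24 h (-1.06 ± 0.15, adjusted p = 5.90e-06). For Cbx3 it passed at 12 h (-1.09 ± 0.18) and 24 h (-1.06 ± 0.18), and for Cbx1 at 12 h (-0.60 ± 0.13) and 24 h (-0.68 ± 0.13). The share of genes called lower in this comparison was 27.7%, 28% and 18.7% at 6, 12 and 24 h. In the induced state it was 17.7%, and none of the 3 passed. At 3 h it was 25.7%, and Cbx5 did not pass (-0.34 ± 0.15, adjusted p = 0.0603). At 6 h Cbx3 and Cbx1 did not pass it (-0.33, adjusted p = 0.120, and -0.24, adjusted p = 0.137), so 12 and 24 h were the times at which all 3 genes passed both comparisons.

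The targeted MSR, counted as the repeat family GSAT_MM, checks the labels. It took 0.00430% to 0.00804% of all counts in uninduced Activator libraries and no more than 0.00396% in any Control library. After induction it took 0.281%, 0.189% and 1.79% in Activator replicates 1 to 3, then 0.315%, 0.788% and 1.41% at 3 h and 0.450%, 1.42% and 2.28% at 6 h. At 12 h the shares were 0.563%, 1.45% and 2.78%, and at 24 h they were 0.905%, 0.935% and 2.68%. Replicate 1 had the lowest share from 3 h on, replicate 2 in the induced state and before it. Replicate 1 had the highest Cbx3 and Cbx1 level of its group at every time but 24 h, uninduced cells included, where its share was the highest. Replicate 3 had the highest share from the induced state on, and its HP1 levels lay between those of the other two at 6 and 12 h. Whether the satellite level had a part in the fall of the HP1 genes was not tested.

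Because the 3 genes were counted in the same libraries, their ratios need no scaling. The Cbx5 to Cbx1 ratio was lower in Activator than in Control cells by 0.36, 0.51, 0.79 and 0.36 on the log2 scale at 3, 6, 12 and 24 h, with no overlap between the groups. Mean log2 Cbx5 to Cbx1 ratios at 12 h were 2.08 ± 0.07 and 2.88 ± 0.16 (SD, n = 3). The Cbx5 to Cbx3 ratio was lower by 0.18, 0.25, 0.40 and 0.29 from the induced state to 12 h, again without overlap, while at 24 h the groups overlapped (0.04). The Cbx3 to Cbx1 ratio overlapped between the lines up to 6 h and was lower by 0.51 at 12 h and 0.40 at 24 h. For each difference without overlap an exact two-sided permutation of 3 against 3 libraries gave p = 0.1, which is as small as this design allows, and 0.18 after adjustment over 18 tests, so none could pass 0.05.

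**Figure D3:**
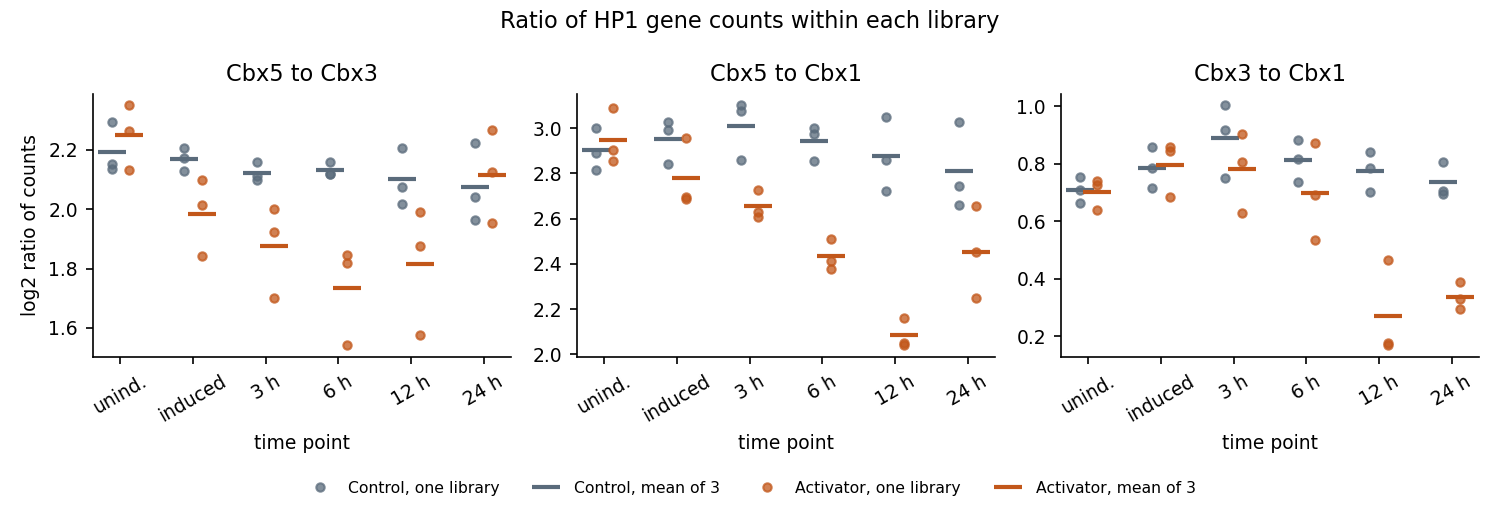
Log2 ratio of the counts of each pair of HP1 genes within a library, by time point, with each library as a point and the mean of 3 as a dash, Control in grey and Activator in orange. At 12 h the Cbx5 to Cbx1 ratio averaged 2.08 in Activator and 2.88 in Control libraries, while the Cbx5 to Cbx3 ratio overlapped again at 24 h.

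The summed HP1 RNA per length, which rests on the merged exon length, is given as a description. It was 115 ± 9.67 CPM per kb (SD, n = 3) in uninduced Activator cells, 76.0 ± 13.5 at 6 h, 52.5 ± 5.55 at 12 h and 54.1 ± 8.81 at 24 h. In Control cells the group means stayed between 118 and 130.4 CPM per kb. Within the sum, the share of Cbx5 in Activator cells was 62.9% ± 1.81 before induction, 51.9% ± 2.24 at 12 h and 57.7% ± 3.06 at 24 h. The share of Cbx1 was 17.2% ± 0.966, 25.8% ± 0.611 and 22.3% ± 1.94 at the same times.

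**Figure D4:**
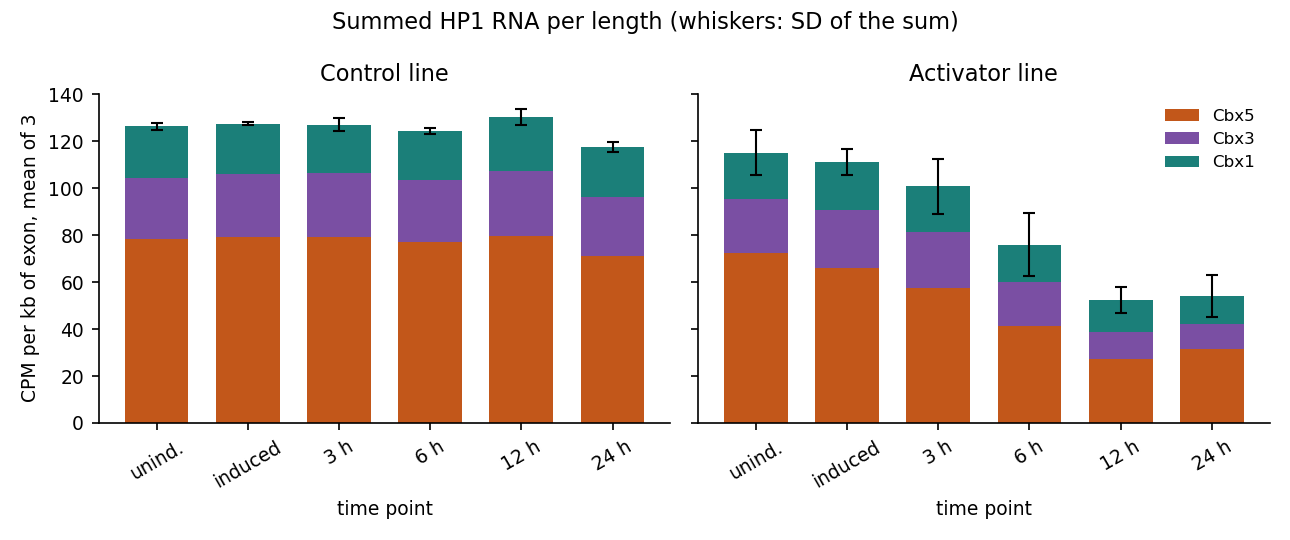
Stacked bars give the mean CPM per kb of exon of Cbx5, Cbx3 and Cbx1 over 3 libraries at each time point in the Control (left) and Activator (right) lines, and whiskers the SD of their sum. The sum stayed between 118 and 130.4 in the Control line and was 52.5 at 12 h in the Activator line.

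Ranked by mean CPM over the 12 groups, the 3 genes had the same group at the top and an Activator group at the bottom. Control cells at 12 h were highest for each gene (Cbx5 716, Cbx3 167 and Cbx1 97.9 CPM). The lowest groups were Activator cells at 12 h for Cbx5 (245 CPM) and at 24 h for Cbx3 and Cbx1 (64.5 and 51.0 CPM). For Cbx1 and Cbx3 each group overlapped the next in the order, in all 11 of the neighbouring pairs. For Cbx5 the order broke at 3 of 11 pairs: between Control at 24 h and induced Activator cells, and then at Activator 3 h and Activator 6 h.

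The protein-coding genes next to the HP1 genes were followed beside them. Hnrnpa2b1, which starts 466 bases from Cbx3, differed between the lines by a log2 of 0.01 at 6 h and -0.15 at 12 h (adjusted p = 0.957 and 0.296), and passed at 24 h (-0.37, adjusted p = 0.0122). Hnrnpa1, which starts 616 bases from Cbx5, was at -0.05 at 6 h (adjusted p = 0.760) and was lower at 12 h (-0.55, adjusted p = 0.00190) and 24 h (-0.79, adjusted p = 5.28e-05). With DESeq2 the falls of Hnrnpa2b1 at 24 h (-0.22) and Hnrnpa1 at 12 h (-0.34) did not pass, and with mitochondrial scaling both genes were lower from the induced state on (-0.72 and -0.79 at 6 h, median of all genes -0.58). Hnrnpa2b1 was also called lower at 12 h without TMM (-0.25) and with mitochondrial scaling (-0.77). Both encode heterogeneous nuclear ribonucleoproteins that act in splicing and RNA transport. Within libraries, the Cbx3 to Hnrnpa2b1 ratio was lower in Activator cells by 0.52 at 6 h and 1.12 at 12 h, and the Cbx5 to Hnrnpa1 ratio by 0.84 and 1.00, with no overlap (exact permutation, two-sided, p = 0.1 and no smaller value possible, 0.133 adjusted over 12 tests). These ratios were chosen after the values of the neighbours were seen. At 24 h the Cbx5 to Hnrnpa1 ratio overlapped between the lines (-0.41, exact permutation p = 0.3).

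Of the 4 neighbours that do not start beside an HP1 gene, 3 were lower in the induced state, where 25.5% of all genes were. Snx11 and Nfe2l1, beside Cbx1, were at -0.95 and -1.06 in the induced state, where Cbx1 was at -0.10, and at -1.68 and -1.43 at 3 h (adjusted p from 2.60e-12 to 5.80e-07). By 24 h they were at -0.48 and -0.77, against -0.84 for Cbx1. Smug1, the DNA glycosylase gene beside Cbx5, was lower as well (-0.96, -1.83 and -0.56 in the induced state, at 3 h and at 24 h). Snx10, beside Cbx3, was lower at 3 h (-0.26), a call lost with DESeq2 (-0.13) and without the replicate block, and was at -0.79 at 12 h.

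**Figure D5:**
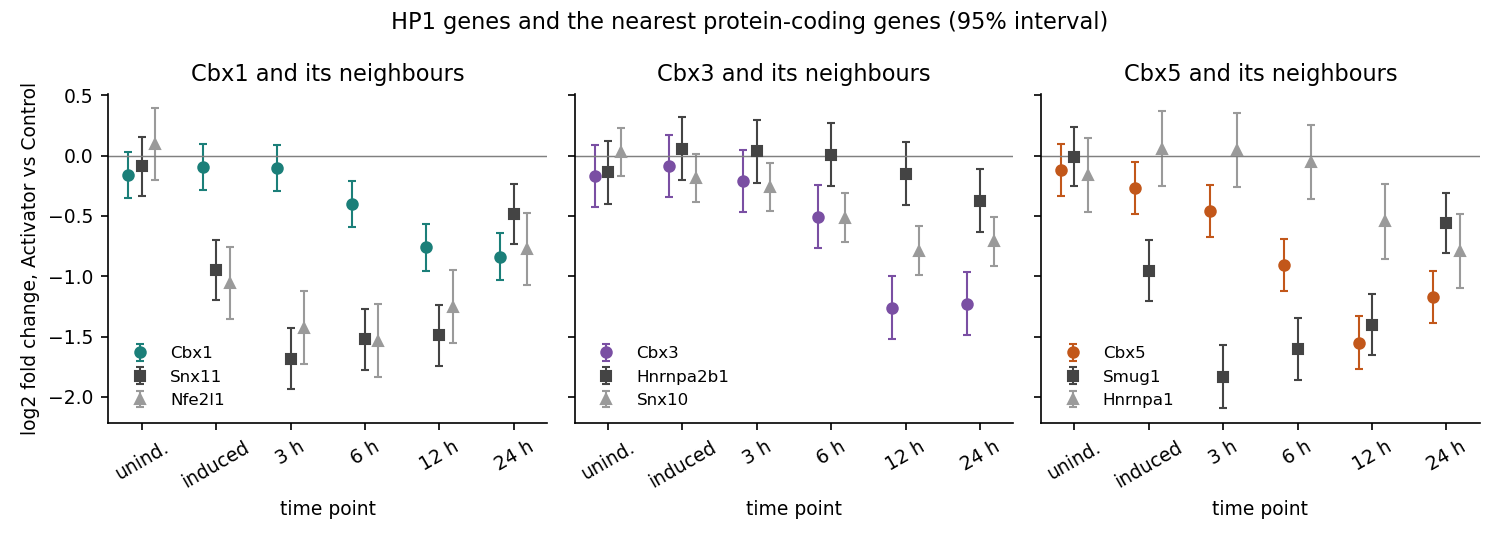
Fitted log2 fold change between Activator and Control cells, with 95% intervals, for each HP1 gene and the nearest protein-coding gene on either side. Snx11, Nfe2l1 and Smug1 were already at -0.95 to -1.06 in the induced state, whereas Hnrnpa2b1 and Hnrnpa1, which start beside Cbx3 and Cbx5, were between -0.05 and 0.06 from the induced state to 6 h under TMM scaling.

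Copies of the HP1 genes could share reads with them. Cbx3 has 8 named processed pseudogenes, whose counts together came to 0.541% to 1.52% of the Cbx3 count, and adding them to Cbx3 changed no call. The most abundant, Cbx3-ps6 (10 to 83 counts), was lower at 12 h by a log2 of -1.35 (adjusted p = 2.44e-04), against -1.26 for Cbx3, and the 2 cannot be separated where reads match both. Gm11517, a processed pseudogene on the opposite strand within Cbx1, was higher by 1.30 on the log2 scale in the induced state and by 2.38 at 12 h (adjusted p = 2.21e-10), though not called at 6 h with mitochondrial scaling (0.58), at 36 to 340 counts per library. The libraries were strand-specific but the strand setting of the counting is not given in the sources used here, so Gm11517 and Cbx1 reads may not be fully separated.

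The other genes of the H3K9 methylation pathway and of related chromodomain proteins were described with 6 lists of 50 genes in all. Before induction none of the 50 was called by edgeR with TMM, where 0.343% of all genes were called lower and 0.883% higher, but 5 were lower with DESeq2 and 1 with repeat counts in the library size. The genes called lower numbered 23, 29, 30, 34 and 29 in the induced state and at 3, 6, 12 and 24 h, against 25.5%, 31.4%, 33.3%, 34.1% and 29.4% of all genes. Those called higher numbered 4, 8, 7, 9 and 9, against 31.7%, 39.6%, 40.8%, 41.1% and 34.5% of all genes. These shares are the background for the counts of each list. They are shares of all genes tested, including those with a mean count of 100 or less. Scaling to the 13 mitochondrially encoded mRNAs, which moved the median of all genes at 12 h from 0.12 to -0.49, left 42 lower and 1 higher at that time.

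Of the 8 methyltransferases for H3K9 and H4K20, 6 were lower and 0 higher at 12 h (34.1% and 41.1% of all genes). Their median log2 fold change was -1.21, against 0.12 for all genes tested, those with a mean count of 100 or less included. From the induced state to 6 h and at 24 h, 6, 7, 7 and 7 of the 8 were lower and 0, 1, 1 and 1 higher. Suv39h1, which writes H3K9me3 at pericentric heterochromatin, went from -0.61 in the induced state to -1.49 at 12 h (adjusted p = 2.46e-15) and -1.02 at 24 h. Its paralogue Suv39h2 was at -0.67, -0.51 and -0.44 at the same times, and at -0.39 before induction (adjusted p = 0.0526). Kmt5c, an H4K20 methyltransferase that HP1 brings to heterochromatin, had the largest fall, already -1.52 in the induced state and -2.31 at 12 h (adjusted p = 1.21e-06). Of 6 H3K9 demethylases 3 were higher and 1 lower at 12 h (median 0.25), near the shares of all genes (41.1% and 34.1%). They ran from Kdm4d at 2.64 (adjusted p = 6.52e-05) to Kdm3b at -0.87 (adjusted p = 5.63e-10). The Kdm4d value had an SE of 0.53, and its mean count was not above 100, so it was not called by the limits of the study. At the other times after induction 1 to 3 of the 6 were higher and 1 or 2 lower.

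HP1-binding partners were mixed, with 11 of 17 lower and 4 higher at 12 h (median -0.51), against 34.1% and 41.1% of all genes. In the induced state and at 3, 6 and 24 h, 7, 9, 10 and 9 of the 17 were lower and 1, 3, 3 and 4 higher. Incenp, the inner centromere protein of the chromosomal passenger complex, fell by 1.42 on the log2 scale (adjusted p = 6.65e-11). Trim28, the KAP1 corepressor that binds the HP1 chromoshadow domain, was at -0.07 at 12 h and -0.15 at 24 h (adjusted p = 0.447 and 0.138), but was called lower with mitochondrial scaling (-0.69 and -0.34) and had the opposite sign with DESeq2. Mis12, a kinetochore protein, was higher by 0.74 (adjusted p = 2.40e-07), and at 0.12 and no longer called with mitochondrial scaling.

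Among 9 other H3K9 methyl readers and pericentric proteins, 7 were lower and 1 higher at 12 h (median -0.70), against 34.1% and 41.1% of all genes. At the other times in the same order 2, 4, 5 and 7 were lower, and 2 of 9 in the induced state is under the 25.5% of all genes. Cdyl2, a chromodomain protein, had the largest fall at -1.63 (adjusted p = 4.77e-07). Hmga1, the AT-hook protein of satellite DNA, was lower at 12 h (-0.50, adjusted p = 0.00819) and not called at 24 h (-0.25, adjusted p = 0.191), and called both times with mitochondrial scaling (-1.14 and -0.42). Of the 5 kinases of HP1 or H3S10, 4 were lower and 1 higher at 12 h (median -0.66, 34.1% and 41.1% of all genes), from Pim1 at -1.37 to Csnk2b at 0.58, which became -0.05 with mitochondrial scaling, and at the other times after induction 1 or 2 of the 5 were lower.

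The Polycomb chromobox genes share the chromodomain but read H3K27me3. All 5 on the list were lower from the induced state to 12 h, when 25.5% to 34.1% of all genes were (induced from -0.88 for Cbx8 to -1.70 for Cbx2, median -1.30), where Cbx1 and Cbx3 were not called and Cbx5 was at -0.27. Their median was -1.84 at 12 h and -0.69 at 24 h, where 3 of 5 were still lower, while Cbx8 stood at 0.06 (adjusted p = 0.804). Of the proliferation markers 1 of 10 was higher in the induced state, 6 at 3 h (median 0.35) and 5 at 6 h, while 2, 2 and 3 were lower (higher were 31.7%, 39.6% and 40.8% of all genes, lower 25.5%, 31.4% and 33.3%). Later none was higher, with 6 of 10 lower at 12 h (median -0.47) and 10 of 10 lower at 24 h (median -0.86), against 34.1% and 29.4% of all genes. Ccna2, the cyclin A2 gene, had the largest fall at 12 h (-1.72, adjusted p = 1.27e-14). Before induction the median between the lines was -0.21, with 0 of 10 called. Against uninduced Activator cells, 4 of 10 were higher and 3 lower at 12 h (median -0.11, 34.9% of all genes lower). At 24 h 0 were higher and 8 lower (28.5% of all genes lower). In the line-by-time comparison at 12 h, 2 of 10 markers were higher and 3 lower (28% of all genes lower). Their part in the fall of the HP1 genes was not tested.

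The genes whose pattern over the 12 groups was most like that of each HP1 gene were found among 11329 protein-coding genes by the root mean square difference of centred log2 group means. For Cbx5 they were Birc6, Entpd6, Zfp706, Ccna2 and Ccdc6, at differences of 0.0683 to 0.0857 (median over all genes 0.507). For Cbx3 they were Phb, Csnk1g2, Nup133 and Grhpr (0.0603 to 0.0715, median 0.462), and for Cbx1 Fanci, Pds5b, Oxa1l, Med12 and Traf7 (0.0485 to 0.0588, median 0.350). Between the HP1 genes the difference was 0.154 for Cbx3 and Cbx5, 0.181 for Cbx1 and Cbx3 and 0.270 for Cbx1 and Cbx5. Many other genes were closer. In order of closeness to Cbx1, Cbx3 ranked 1523 and Cbx5 3716. For Cbx3, Cbx5 ranked 157 and Cbx1 290, and for Cbx5, Cbx3 ranked 105 and Cbx1 1001.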

How the data were processed

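Stranded total RNA libraries of 2 MEF lines at 6 time points were analysed, 36 in all. The authors trimmed paired-end reads with cutadapt 1.8.1, aligned them to GRCm38 with STAR 2.5.2b and made the deposited counts per gene and repeat family with TEtranscripts 2.0.3. These are raw counts, and replicates were not pooled. The annotation release, the sharing of multi-mapped reads and the strand setting are not given in the sources used here. Of the 54842 gene identifiers 54409 matched GENCODE M21. An entry with no name, at most 0.00452% of counts in a library, was left out, and 0 columns were unused.

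Counts were fitted in R 4.3.3 with edgeR 4.0.16 (filterByExpr, TMM, robust glmQLFit, glmQLFTest), with terms for the 12 groups and, as in the study's design, for replicate number. Standard errors came from the log2 fold change and the root of its F statistic, and intervals cover 95%. P-values were adjusted by Benjamini-Hochberg over the 28536 genes tested, and a call needed an adjusted p under 0.05. CPM per kb used the union of exons. Ratios used two-sided exact permutation tests, which did not pair libraries by replicate number. Alternatives covered DESeq2 1.42.0 and its size factors, library sizes without TMM, scaling to the 13 mitochondrial mRNAs, repeat counts in the library size, the low-count filter, the block, pseudogene counts, the libraries in the fit and replicates left out. Fits on fewer libraries made the filter and TMM scaling anew, so their values also move with the scaling. No 2 of the libraries were identical. The steps were tested on simulated data.

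The members, lists and tests were chosen with earlier results of these data known. Named were the 3 HP1 genes, their pseudogenes and nearest protein-coding neighbours, the 5 genes closest in pattern to each, Suv39h1, Suv39h2, Trim28, Hmga1 and the Polycomb chromobox genes, and in each list the gene with the largest rise and fall called at 12 h. A few genes that this rule names are not reported here. Gm11517 and the ratios to Hnrnpa1 and Hnrnpa2b1 were picked once their values were known. The study describes the 3 replicates as independent experiments on the same lines, so p-values measure the spread between experiments, not between lines made anew.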

Additional observations from a re-analysis of the deposited data

Results flagged for a closer look

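The change of the HP1 genes from the uninduced state differed between the 2 lines by the interaction contrast of the edgeR fit (adjusted p over all genes, Benjamini-Hochberg), given here as the log2 change in the Activator line minus that in the Control line. For Cbx5 it was -0.79 at 6 h, -1.43 at 12 h and -1.06 at 24 h (adjusted p = 8.47e-05, 1.23e-08 and 5.90e-06). For Cbx3 it was -1.09 at 12 h and -1.06 at 24 h (adjusted p = 1.24e-05 and 5.17e-05). For Cbx1 it was -0.60 at 12 h and -0.68 at 24 h (adjusted p = 4.93e-04 and 2.93e-04). Of all genes, 27.7%, 28% and 18.7% were called lower in this contrast at 6, 12 and 24 h. At these times all 3 Activator libraries lay below all 3 Control libraries of each gene. The share of all genes with such a separation was not counted.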

How the results depend on the processing

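Over 87 HP1 gene results and 1170 alternatives, 1090 kept their side of the threshold (63 of them, not called either way, changed sign), 35 lost the call, 39 gained one and 6 reversed. The Activator to Control differences at 12 and 24 h kept both under all 20 settings (12 h: Cbx5 -2.16 to -1.34, Cbx3 -1.88 to -1.01, Cbx1 -1.38 to -0.53). The sizes still moved, by over 1.5 times for Cbx1 at 12 h, and steps up to 24 h changed call. Causes were not tested.

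With scaling to mitochondrial mRNAs the Activator to Control difference was called for Cbx1 and Cbx3 in the induced state (-0.47 and -0.46) and at 3 h (-0.71 and -0.82). Against uninduced Activator cells it gave -0.54, -0.45 (both reversed) and -0.71 for induced Cbx1, Cbx3 and Cbx5, and -0.63 and -0.55 (the latter reversed) for Cbx1 and Cbx3 at 3 h. The Activator steps became -0.67 for Cbx5 from 3 to 6 h and -0.39 and -0.31 for Cbx3 and Cbx5 from 6 to 12 h, no longer called, and 0.54 for Cbx5 from 12 to 24 h, now called. The line-by-time difference was -0.58 (reversed), -0.68 and -0.98 for Cbx1, Cbx3 and Cbx5 at 3 h and -0.995 and -1.10 for Cbx1 and Cbx3 at 6 h. Pathway genes called higher numbered 1 at each of the 5 later times, and 36 were lower in the induced state.

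Without TMM, Activator to Control at 3 h gave Cbx1 -0.21 and Cbx3 -0.32, Activator cells at 3 h against uninduced gave Cbx1 -0.22, the Cbx5 steps were -0.44 (3 to 6 h, lost) and 0.45 (12 to 24 h), and the line-by-time difference was -0.49 for Cbx5 at 3 h and -0.42 and -0.52 for Cbx1 and Cbx3 at 6 h. Repeat counts in the library size without TMM, an alternative chosen after seeing the data, gave -0.22, -0.33, -0.21, 0.45, -0.48, -0.44 and -0.54 for the same results save the lost step, and -0.29 for Cbx1 from 6 to 12 h. With TMM kept from genes they gave -0.27 for induced Cbx5 (lost) and -0.32 for Cbx1 from 6 to 12 h.

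DESeq2 and its size factors in edgeR both gave -0.19 for induced Cbx5 and, against uninduced Activator cells, -0.18 for Cbx5 at 3 h and -0.13 and -0.12 for Cbx1 and Cbx3 at 6 h, all lost, and -0.26 for Cbx1 from 12 to 24 h, gained. Without the low-count filter the line-by-time difference of Cbx5 at 3 h was called (-0.36). With only the 6 libraries of 6 h, Cbx1 (-0.28) and Cbx3 (-0.40) were lost.

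The sources used here link replicates 1 to 3 across groups by number. Deviations of same-numbered libraries were mostly positively correlated, with 16 of 18 correlations over 0.1 (-0.02 to 0.51). Same-numbered libraries thus shared some variation, and its origin was not tested. With no replicate block the one call to change was Cbx3 at 6 h against uninduced Activator cells (-0.29, adjusted p = 0.0789).

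Leaving out replicates moved Activator to Control values to -0.28 to -0.095 for induced Cbx5, -0.18 to 0.22 and -0.33 to 0.11 for Cbx1 and Cbx3 at 3 h, and -0.51 to -0.12 and -0.71 to -0.19 at 6 h. For Cbx1 at 3 h and for Cbx1 and Cbx3 at 6 h, the upper end came from the fit without replicate 2. That fit also made the TMM scaling anew, and the parts of library and scaling were not separated. Against uninduced Activator cells the ranges were 0.11 to 0.29 for induced Cbx3, -0.13 to 0.23, -0.040 to 0.35 and -0.40 to -0.076 for Cbx1, Cbx3 and Cbx5 at 3 h, and -0.37 to -0.087 and -0.39 to -0.032 for Cbx1 and Cbx3 at 6 h. The Activator steps of Cbx1, Cbx3 and Cbx5 ran from -0.32 to -0.24, -0.43 to -0.29 and -0.55 to -0.46 from 3 to 6 h and from -0.33 to -0.20, -0.79 to -0.64 and -0.74 to -0.54 from 6 to 12 h, with -0.27 to -0.10 and -0.28 to 0.093 for Cbx1 and Cbx3 from 12 to 24 h. The line-by-time difference of Cbx1 at 3 h ran from -0.031 to 0.35.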
